A study of Mus musculus with 13 samples.

Results

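The interferon response genes described here are 37 mouse genes that cells switch on when they sense virus or receive an interferon signal, chosen as a list of symbols and found by symbol in the deposited tables. All 37 were among the 28183 genes of the kidney table, and 3 of them were among the 2016 genes of the cell table. The kidneys came from C57BL/6 mice in a pair of models of polycystic kidney disease, with 2 RNA-seq libraries in each of 4 groups. Pkd1 knockouts had the genotype KSP/Cre+;Pkd1f/f and Pkd1 controls KSP/Cre-;Pkd1f/f, both at postnatal day 10. Pkd2 knockouts had the genotype Pkhd1/Cre+;Pkd2f/f and Pkd2 controls Pkhd1/Cre-;Pkd2f/f, both at postnatal day 20. All 4 groups thus carried a floxed gene, and only the knockouts carried Cre, which the KSP (Cdh16) and Pkhd1 promoters drive in kidney tubule epithelium. The model differed between the pairs in the gene, the Cre line and the age at once. The cells were mIMCD-3, a line from the inner medullary collecting duct of the mouse, transfected with 10 nM of a control gapmer (2 libraries) or of one that targets Hoxb3os, a long noncoding RNA (3 libraries), for 48 h. A gapmer is an antisense oligonucleotide that directs RNase H to its target RNA. The comparisons ask how the cystic kidneys and the cells with the Hoxb3os gapmer differ from their controls.

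Interferons are secreted proteins that warn neighbouring cells of infection. Type I interferons bind Ifnar1 and Ifnar2, and kinases of the JAK family then activate a complex named ISGF3, of which Stat2 and Irf9 are parts and which binds the interferon-stimulated response element (ISRE). Interferon gamma acts through the gamma-activated site (GAS) and raises Irf1, guanylate-binding proteins and the immunoproteasome. In kidney, tubule cells and resident macrophages can both produce this response.

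The promoters show the letters that these factors are known to bind. RefSeq promoters (GRCm38.p6, 250 bases before to 50 after the annotated start) matched 28 of the 37 genes. On either strand, the ISRE core GAAANNGAAA was in at least 1 promoter of 15 of the 28 genes. Counted by promoter, it was in 48.5% of the 33 promoters of these genes and in 3.44% of all 32851 promoters. The GAS core TTCNNNGAA, which reads the same on both strands, was in 7 of the 28 genes. By promoter it was in 21.2% of the 33 and in 8.30% of all promoters. Matches of the 2 cores overlapped in Bst2 and Ifitm3. A match is a description of letters and not a binding site. Stretches before the start of 6 genes are printed because they cover the classic ISRE genes Isg15 and Ifit1 and 4 genes whose levels changed in the knockouts. They run 5′ to 3′ on the strand of the gene, and capitals mark every ISRE or GAS core in them, with ISRE cores read as GAAANNGAAA or as its reverse complement.
Isg15 (minus strand, chr4:156200860-156200911): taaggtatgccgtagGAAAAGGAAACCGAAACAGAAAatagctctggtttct
Ifit1 (plus strand, chr19:34640770-34640828): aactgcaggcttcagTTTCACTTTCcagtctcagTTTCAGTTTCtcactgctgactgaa
Oas1a (minus strand, chr5:120907526-120907638): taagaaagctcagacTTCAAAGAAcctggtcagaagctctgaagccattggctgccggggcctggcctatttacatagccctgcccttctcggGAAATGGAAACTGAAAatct
Gbp7 (plus strand, chr3:142530215-142530307): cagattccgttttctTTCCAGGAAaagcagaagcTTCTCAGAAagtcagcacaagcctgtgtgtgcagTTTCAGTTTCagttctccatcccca
Irf1 (plus strand, chr11:53769909-53769947): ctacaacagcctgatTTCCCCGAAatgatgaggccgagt
Rsad2 (minus strand, chr12:26456548-26456587): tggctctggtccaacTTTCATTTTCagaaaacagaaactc

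Isg15 carries 3 overlapping ISRE cores and Ifit1 has 2. Oas1a has 2 overlapping ISRE cores next to the start and a GAS core farther away, and Gbp7 has 2 GAS cores and an ISRE core. Irf1 has a GAS core alone, and Rsad2 has a single ISRE core.

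Before the results, some facts of the libraries. Reads recovered from the kidney values came to 30.7 to 94.4 M per library. The targeted genes give no check of the labels. Pkd1 was at 31.1 and 22.7 in Pkd1 controls and 24.1 and 26.0 in Pkd1 knockouts, and Pkd2 was at 69.0 and 61.2 in Pkd2 controls and 50.7 and 53.3 in Pkd2 knockouts (adjusted p = 0.817 and 0.332, limma), in values over the whole gene, of which the floxed part is not separate. Titles of the Pkd2 knockouts carry "(WT)", while their genotype and description give a knockout, which was used. Xist and Y-linked genes showed that sex was not balanced: both Pkd2 controls were of the female pattern and the Pkd2 knockouts 1 of each, while both Pkd1 knockouts held Y-linked transcripts (149.5 and 183) together with Xist (25.3 and 27.7). Mitochondrial transcripts were lower in the knockouts of both models: they made up 27.4% and 38.7% of the values in Pkd1 controls, 22.05% and 22.5% in Pkd1 knockouts, 41.4% and 41.3% in Pkd2 controls and 34.7% and 30.1% in Pkd2 knockouts. Small RNA made up 6.42% in Pkd2 knockout 2 and 13.4% to 29.2% elsewhere. Their part in the results was not tested, but scaling without both moved the median Pkd2 change of all genes to 0.086. Pkd2 knockout 2 stood apart from Pkd2 knockout 1 (33.4 against -0.765 on a first principal component with 51.8% of the variance). The labels do not say whether the replicates of a group came from different animals or cultures. Pkd1 control 1 against 2 and Pkd2 knockout 1 against 2 differed in the pattern of Xist and Y-linked transcripts, so neither pair was 1 animal, while for the other groups the spread behind the p-values may be technical.

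In the Pkd2 knockouts 12 interferon response genes rose, in the Pkd1 knockouts 3 did, and Rsad2 fell in both models. Values are the deposited signal, read as reads scaled to depth, after a further scaling of each library. A gene was tested if it reached 1 in at least 2 of the 8 libraries, and called at a limma adjusted p (Benjamini-Hochberg, over 14637 genes) below 0.05. Changes are log2 differences of value + 1 ± SE, knockout minus control, which understate the change of low genes. Of the 37 genes, 34 were tested, and Zbp1, Oas3 and Mx1 were too low, so the counts below are not of all 37. In the Pkd1 model, Irf9, Oas2 and Ifitm3 rose, which is 3 of 34 beside 5.11% of all tested genes, and Rsad2 and Cmpk2 fell, 2 of 34 beside 5.48%. In the Pkd2 model 12 of 34 rose (Irf9, Irf1, Parp9, Dtx3l, Parp14, Oas1a, Oas2, Trim30a, Gbp2, Gbp7, Psmb8 and Tap1), beside 9.54% of all tested genes, and Rsad2 alone fell, beside 8.13%. Irf9, Oas2 and Rsad2 were called in both. Oas1a, counted among the 12, passed the filter only through knockouts, as did Dhx58 and Mx2, which were not called.

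The median change of the 34 genes was 0.17 in the Pkd1 model, beside -0.002 over all genes tested, and 0.55 in the Pkd2 model, beside -0.008. Both Pkd1 knockouts lay above both controls for 14 of the 34 and below for 4, where 29.1% and 29.2% of all genes did. Both Pkd2 knockouts lay above both controls for 26 and below for 2 (Rsad2 and Cmpk2), where 31.9% and 30.9% of all genes did. The libraries of a group were not alike. Set against the control mean, the median member was 0.36 higher in Pkd1 knockout 1 and -0.04 in Pkd1 knockout 2, and 0.40 and 0.79 higher in Pkd2 knockouts 1 and 2. Pkd2 knockout 2 had the highest value of all 8 libraries for 29 of the 37 genes, a share not counted over all genes. Of the 34 tested, 29 were higher in Pkd2 knockout 2 than in Pkd2 knockout 1, beside 50.07% of all genes. Without single libraries the 12 calls became 1 (without Pkd2 control 1), 2 (without Pkd2 control 2), 19 (without Pkd2 knockout 1) and 4 (without Pkd2 knockout 2). The 3 rises in the Pkd1 model became 0 without Pkd1 control 1, Pkd1 control 2 or Pkd1 knockout 1 in turn, and 1 without Pkd2 control 1 or 2.

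**Figure D1:**
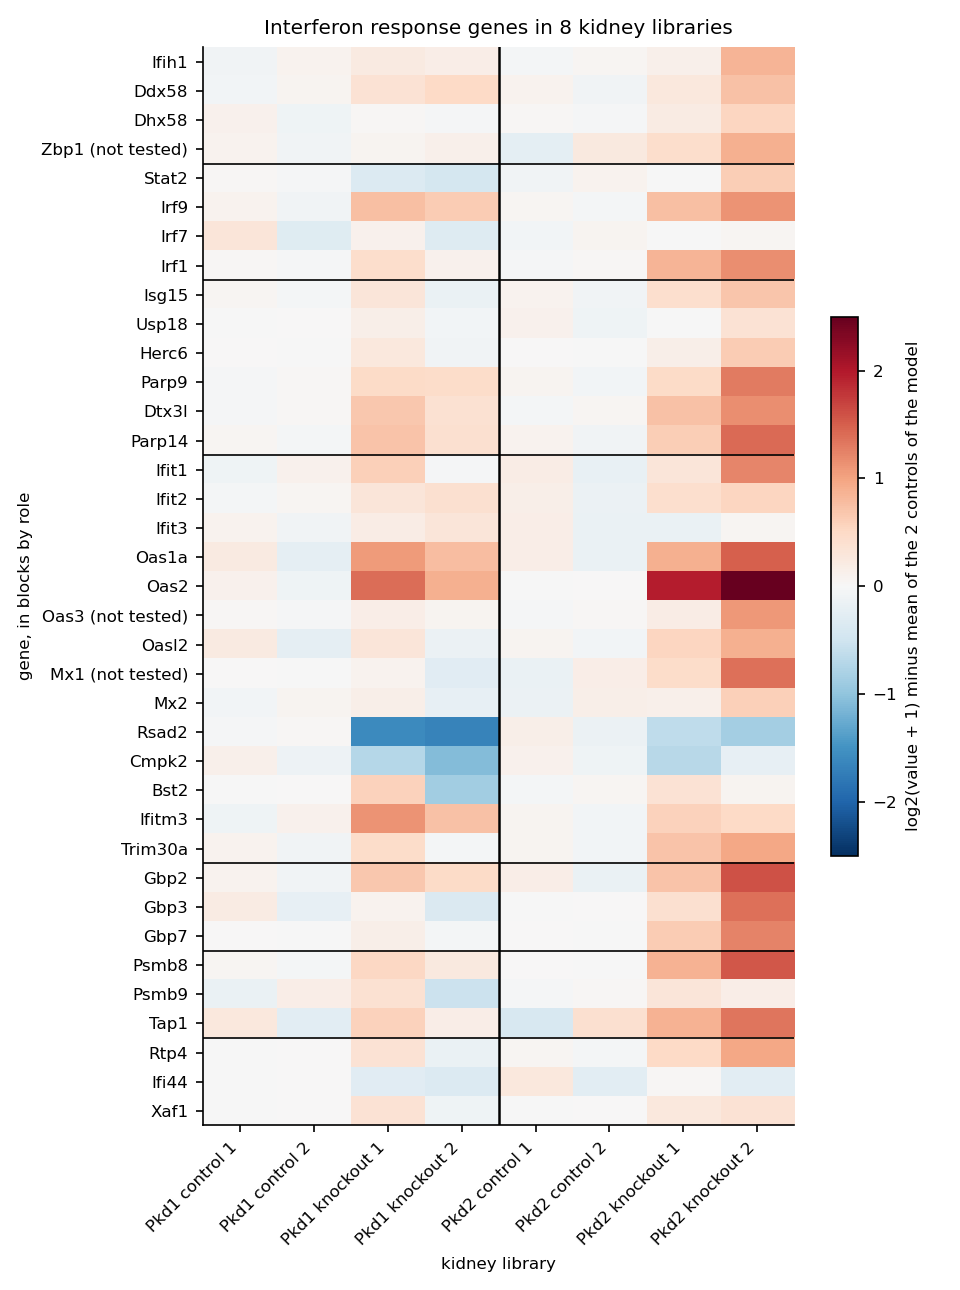
Each cell is the log2(value + 1) of a gene (vertical axis, in blocks by role) in 1 kidney library (horizontal axis) minus the mean of the 2 controls of its model, red for higher and blue for lower. The column of Pkd2 knockout 2 is the reddest, Oas2 is red in all 4 knockouts, and Rsad2 is blue in all 4.

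The difference between the models was not called for any member. limma called 0 of 34 for the Pkd1 change minus the Pkd2 change (6 at an unadjusted p below 0.05), edgeR 0 (6) and DESeq2 0 (6). Over all 14637 genes limma called 0.00683%, and 1207 had an unadjusted p below 0.05. The estimate was below 0 for 32 of the 34, with a median of -0.42. Over all genes the median was 0.002, and 50.26% of the estimates were above 0. For Oas2 it was -1.17 ± 0.37 (limma adjusted p = 0.372), and for Rsad2 -0.89 ± 0.24 (adjusted p = 0.280). A p above the threshold does not show that the models were alike, and each model's own values are given side by side.

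**Figure D2:**
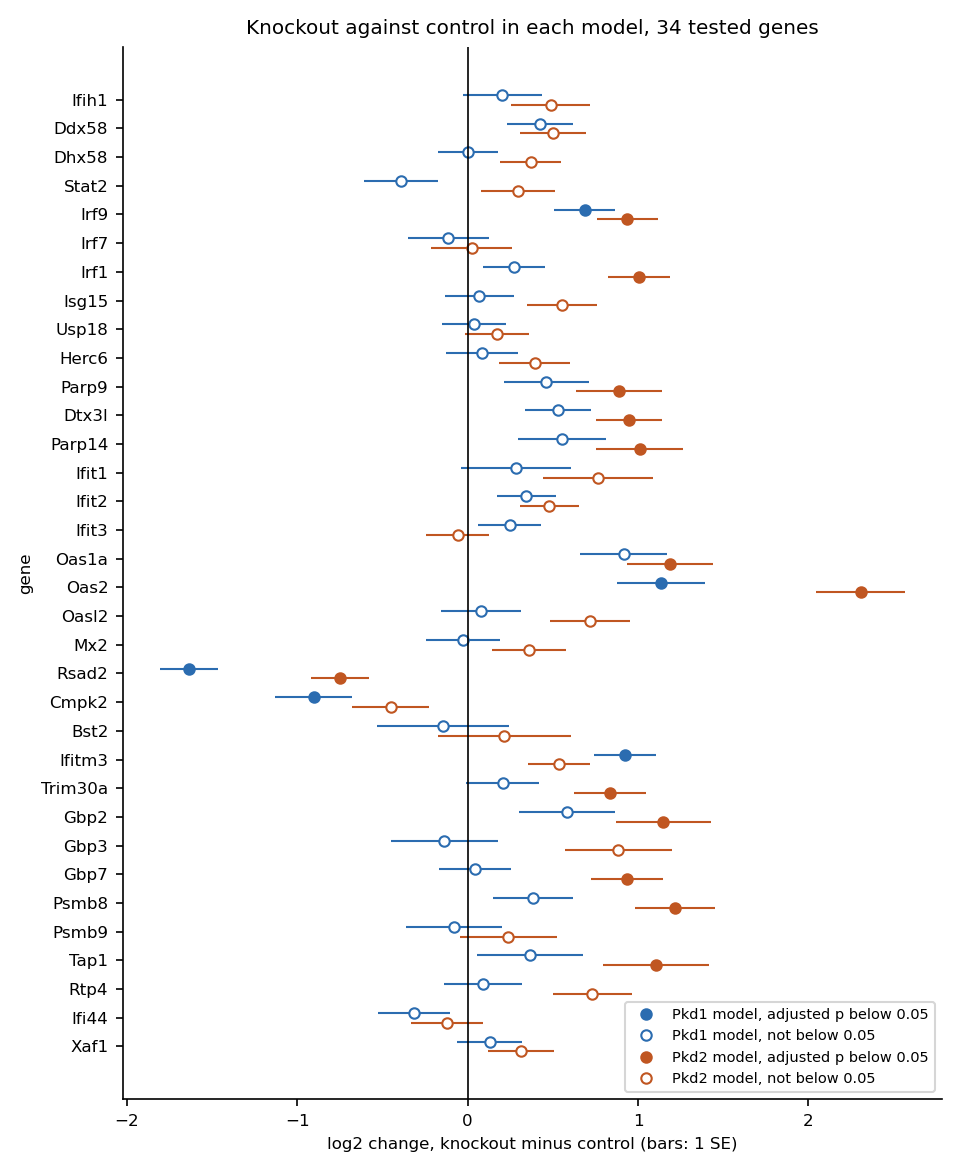
Points are log2 changes, knockout minus control, of the 34 tested genes (vertical axis) in the Pkd1 (blue) and Pkd2 (orange) models, with bars of 1 SE and filled points at a limma adjusted p below 0.05. Most orange points lie to the right of the blue ones, Oas2 lies farthest right at 1.14 and 2.31, and Rsad2 farthest left at -1.64 in the Pkd1 model.

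Among the sensors, which recognise viral nucleic acid in the cytoplasm, none of the 3 tested was called in either model. Ddx58 (RIG-I) was at 17.02 and 18.9 in Pkd1 controls, 23.4 and 25.6 in Pkd1 knockouts, 29.4 and 26.1 in Pkd2 controls and 33.5 and 47.0 in Pkd2 knockouts. Its groups did not overlap in either model, with differences of 0.43 ± 0.19 (adjusted p = 0.193) and 0.50 ± 0.19 (adjusted p = 0.106, limma). Ifih1 (MDA5) was also above both controls in both knockouts of each model, with differences of 0.20 ± 0.23 and 0.49 ± 0.23. Dhx58 (LGP2), a regulator of both, was at most 1.97 in any library. Zbp1, a sensor of Z-form nucleic acid, was not tested: it was 0 in Pkd1 control 2, where a count of 0 allows up to 3 reads or a value of 0.0656, and reached 1.64 (71 reads) in Pkd2 knockout 2.

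Of the 4 signalling factors, Irf9 rose in both models and Irf1 in the Pkd2 model, while Stat2 and Irf7 were not called in either. Irf9, the DNA-binding part of ISGF3, was at 15.8 and 14.0 in Pkd1 controls and 25.6 and 23.5 in Pkd1 knockouts, and at 19.9 and 18.5 in Pkd2 controls and 33.0 and 43.1 in Pkd2 knockouts. Both knockouts were above both controls in each model. Irf9 rose by 0.69 ± 0.18 (limma adjusted p = 0.0426) in the Pkd1 model, a call kept in 7 of 18 alternatives and lost without each of the 4 Pkd1 libraries and each Pkd2 control in turn (adjusted p up to 0.190), and, among others, without the filter (0.0771) and with sex as a covariate (0.0509). It rose by 0.94 ± 0.18 (adjusted p = 0.00938) in the Pkd2 model, kept in 16 of 18. The 2 exceptions leave out a Pkd2 control, without which the adjusted p reached 0.0899.

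Irf1, a factor of the interferon gamma arm, was at 11.2 and 10.6 in Pkd1 controls, 15.1 and 11.8 in Pkd1 knockouts, 11.6 and 12.3 in Pkd2 controls and 22.5 and 27.98 in Pkd2 knockouts. It rose by 1.01 ± 0.18 in the Pkd2 model (limma adjusted p = 0.00815, kept in 16 of 18 alternatives, the exceptions again without a Pkd2 control, at up to 0.0680) and the Pkd1 difference was 0.27 ± 0.18 (adjusted p = 0.376). Stat2, the other part of ISGF3 in this list, was at 6.89 and 6.54 in Pkd1 controls, 5.11 and 4.68 in Pkd1 knockouts, 8.45 and 9.55 in Pkd2 controls and 8.91 and 14.2 in Pkd2 knockouts. The differences were -0.39 ± 0.22 (adjusted p = 0.286) and 0.30 ± 0.22 (adjusted p = 0.377), and the second was -0.01 without Pkd2 knockout 2 and 0.61 (adjusted p = 0.0452, called) without Pkd2 knockout 1.

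Irf7, which amplifies type I interferon production and is usually raised by interferon, did not follow Irf9. It was at 5.04 and 2.97 in Pkd1 controls, 4.27 and 2.90 in Pkd1 knockouts, 14.0 and 15.3 in Pkd2 controls and 14.5 and 15.2 in Pkd2 knockouts. The knockouts overlapped their controls in both models, and the differences were -0.11 ± 0.24 and 0.02 ± 0.24 (adjusted p = 0.796 and 0.956, limma). What separated the libraries of Irf7 was the pair of models, not the knockout.

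Isg15 encodes a ubiquitin-like protein, Herc6 a ligase that attaches it and Usp18 the protease that removes it. Isg15 was low throughout, at 0.648 and 0.547 in Pkd1 controls, 0.973 and 0.423 in Pkd1 knockouts, 1.53 and 1.26 in Pkd2 controls and 2.19 and 2.87 in Pkd2 knockouts. The differences were 0.07 ± 0.20 (adjusted p = 0.856) and 0.55 ± 0.20 (adjusted p = 0.0943, limma), and the first was -0.17 without Pkd1 knockout 1. Herc6 (0.09 and 0.39) and Usp18 (0.04 and 0.17) were not called either.

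Parp9, Dtx3l and Parp14 form the called part of that group. Parp9 and its partner, the ubiquitin ligase Dtx3l, work as a pair, and Parp14 is a related ADP-ribosyltransferase. Dtx3l was at 6.08 and 6.43 in Pkd1 controls, 10.6 and 8.47 in Pkd1 knockouts, 8.03 and 8.58 in Pkd2 controls and 14.6 and 19.7 in Pkd2 knockouts. Parp9 was at 11.6 and 12, then 16.8 and 16.5, then 14.3 and 12.8, then 19.1 and 34.9, in the same order. Parp14 was at 8.09 and 7.43, then 13.4 and 10.5, then 16.8 and 14.9, then 24.7 and 43.8. In all 3 the knockouts lay above the controls in both models, while only the Pkd2 changes were called.

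Those Pkd2 changes were 0.95 ± 0.19 for Dtx3l (limma adjusted p = 0.0130), 0.89 ± 0.25 for Parp9 (0.0412) and 1.01 ± 0.26 for Parp14 (0.0292). The Parp9 call was kept in 7 of 18 alternatives, with Pkd2 knockout 1 the only library that could be left out (adjusted p up to 0.220), and was lost, among others, without the filter (0.0982) and with each model alone (0.107). The Parp14 call was kept in 11, and lost without any one control library or without Pkd2 knockout 2 (up to 0.179). Without Pkd2 knockout 2 the differences of Parp9 and Parp14 were 0.47 and 0.61. The Dtx3l call was kept in 15 of 18, being lost without Pkd2 control 1, Pkd2 control 2 or Pkd2 knockout 2 (adjusted p up to 0.0914). Dtx3l (chr16:35926511-35939151, minus strand, mm10) and Parp9 (chr16:35938470-35972605, plus strand) overlap over 682 bases at their starts, and the strand setting of the counting is not given, so reads there cannot be told apart. The Pkd1 differences of the 3, not called, were 0.53 ± 0.19, 0.46 ± 0.25 and 0.56 ± 0.26 (adjusted p = 0.120, 0.272 and 0.203).

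Oas2 changed most among the antiviral effectors of the Pkd2 model. The 2′-5′ oligoadenylate synthetases make the messenger that activates RNase L, which degrades RNA. Oas2 was at 0.418 and 0.219 in Pkd1 controls and 2.45 and 1.42 in Pkd1 knockouts, and at 1.30 and 1.30 in Pkd2 controls and 7.99 and 13.4 in Pkd2 knockouts. Its knockout means were 6.07 (Pkd1) and 8.22 (Pkd2) times those of the controls. Its reads were 51 and 10 in Pkd1 controls, 141 and 67 in Pkd1 knockouts, 50 and 59 in Pkd2 controls and 285 and 579 in Pkd2 knockouts. Oas2 rose by 2.31 ± 0.26 in the Pkd2 model (limma adjusted p = 0.00120) and stayed called in all 18 alternatives run for it. In the Pkd1 model it rose by 1.14 ± 0.26 (adjusted p = 0.0282), kept in 12 of 18, with the losses all in the fit without a filter and the fits without Pkd1 control 1 or 2, Pkd1 knockout 1, or Pkd2 control 1 or 2 (adjusted p up to 0.156).

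Oas1a, a smaller enzyme of the same family, was at 0.498 and 0.109 in Pkd1 controls, 1.68 and 1.21 in Pkd1 knockouts, 1.06 and 0.653 in Pkd2 controls and 2.41 and 4.19 in Pkd2 knockouts. The groups did not overlap in either model. It rose by 1.19 ± 0.25 in the Pkd2 model (limma adjusted p = 0.0151, kept in 13 of 18 alternatives and lost with edgeR, without the filter and without Pkd2 control 1, Pkd2 control 2 or Pkd2 knockout 2, at up to 0.123). In the Pkd1 model the difference was 0.92 ± 0.25 (adjusted p = 0.0531), below 0.05 in 6 of 18 alternatives. Of the controls, only Pkd2 control 1 reached 1, so Oas1a passed the filter only through the knockouts, where it was high. Oas1a is nearly identical to Oas1g, so the split of reads between them is uncertain.

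The authors' deposited table, which rests on another test, gave Oas1a an adjusted p of 5.64e-05 in Pkd1 and 6.91e-05 in Pkd2, and Oas2 5.24e-07 and 2.06e-11. Over the 37 genes, the authors' deposited table had an adjusted p below 0.05 for 2 higher and 2 lower in Pkd1 knockouts, and for 13 higher and 0 lower in Pkd2 knockouts. The share of all genes below 0.05 there was not counted, so these numbers have no background beside them. The 13 in the authors' deposited table include Oas3 (adjusted p = 5.02e-05), Mx1 (7.95e-06) and Zbp1 (0.0112), which were too low to be tested here. They also include Ifit1 (0.05 after rounding), which limma did not call. Some rises called here were not below 0.05 there. These were Irf9 (0.285 in Pkd1 and 0.0648 in Pkd2), Ifitm3 in Pkd1 (0.0758), and Parp9 (0.0619) and Trim30a (0.0817) in Pkd2. Oas3, the largest synthetase, was at 0.0574 and 0.0219 in Pkd1 controls, 0.174 and 0.0847 in Pkd1 knockouts, 0.104 and 0.154 in Pkd2 controls and 0.280 and 1.39 in Pkd2 knockouts. Mx1, an antiviral GTPase that RefSeq lists as a pseudogene in its reference strain, was at 0.221 and 0.219, then 0.295 and 0, then 0.104 and 0.397, then 0.701 and 2.22. For both genes Pkd2 knockout 2 was the highest library, with 60 and 96 reads beside 10 and 25 in Pkd2 knockout 1.

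The Ifit genes encode proteins that bind foreign RNA ends, and none was called by limma in either model. Ifit1 was at 0.427 and 0.634 in Pkd1 controls, 1.32 and 0.487 in Pkd1 knockouts, 2.83 and 1.96 in Pkd2 controls and 3.17 and 6.87 in Pkd2 knockouts. The differences were 0.28 ± 0.32 and 0.76 ± 0.32 (limma adjusted p = 0.616 and 0.137), and the first was -0.04 without Pkd1 knockout 1. The second turned on single libraries, at 1.22 (adjusted p = 0.0185, called) without Pkd2 knockout 1 and 0.31 (0.613) without Pkd2 knockout 2. Those of Ifit2 were 0.35 and 0.48, with no overlap of groups. Ifit3, whose near-identical copy is Ifit3b, differed by 0.25 and -0.06.

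Rsad2 and Cmpk2 went the other way. Rsad2 encodes viperin, which makes a chain-terminating nucleotide from CTP, and Cmpk2 is the nucleotide kinase that feeds it. They lie 12751 bases apart on chromosome 12, Rsad2 on the minus strand (chr12:26442753-26456452, mm10) and Cmpk2 on the plus strand (chr12:26469204-26479835). Rsad2 was at 29.9 and 30.9 in Pkd1 controls and 9.43 and 8.80 in Pkd1 knockouts, and at 57.0 and 46.4 in Pkd2 controls and 32.6 and 28.02 in Pkd2 knockouts. Every knockout was below every control of its model. Rsad2 fell by 1.64 on the log2 scale (SE 0.17, limma adjusted p = 0.00159) in the Pkd1 model and stayed called in all 18 alternatives run for it.

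In the Pkd2 model Rsad2 fell by 0.75 (SE 0.17, limma adjusted p = 0.0190), kept in 14 of 18 alternatives. The call was lost when each model was fitted alone and without Pkd2 control 1, Pkd2 control 2 or Pkd2 knockout 2 (adjusted p up to 0.154). Cmpk2 was at 4.40 and 3.59 in Pkd1 controls, 2.03 and 1.33 in Pkd1 knockouts, 6.60 and 5.63 in Pkd2 controls and 3.39 and 5.13 in Pkd2 knockouts. The groups did not overlap in either model. Cmpk2 fell by 0.90 (SE 0.22, adjusted p = 0.0377) in the Pkd1 model, kept in 8 of 18 alternatives with an adjusted p of up to 0.212, lost without each of the 4 Pkd1 libraries and each Pkd2 control in turn and, among others, without the filter (0.122) and with sex as a covariate (0.0754). In the Pkd2 model the difference was -0.45 ± 0.22 (adjusted p = 0.200). The authors' deposited table had adjusted p-values of 0.000164 (Rsad2) and 0.02 (Cmpk2) in Pkd1, and of 0.200 and 0.527 in Pkd2.

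Ifitm3, a membrane protein that blocks viral entry, was the member with the highest level per kilobase of exon in every group. It was at 11 and 12.9 in Pkd1 controls, 27.0 and 20.5 in Pkd1 knockouts, 21.96 and 20.1 in Pkd2 controls and 31.9 and 30.0 in Pkd2 knockouts. Knockouts lay above controls in both models. It rose by 0.93 ± 0.18 in the Pkd1 model (limma adjusted p = 0.0158, kept in 15 of 18 alternatives, lost without Pkd1 control 1, Pkd1 control 2 or Pkd1 knockout 1, at up to 0.117). In the Pkd2 model it differed by 0.54 ± 0.18 (adjusted p = 0.0740). Trim30a, a member of a family of similar genes, rose by 0.84 ± 0.21 in the Pkd2 model (adjusted p = 0.0289), from 5.04 and 4.43 to 8.38 and 10.2, and was at 2.46 and 2.03 in Pkd1 controls and 3.45 and 2.14 in Pkd1 knockouts, which overlap. Its call was kept in 13 of 18 alternatives, lost without Pkd2 control 1, Pkd2 control 2 or Pkd2 knockout 2 among others (adjusted p up to 0.184). Bst2 (tetherin), Oasl2 and Mx2 were not called in either model, with differences from -0.14 to 0.72, and Mx2 is a polymorphic pseudogene in the table's own annotation.

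**Figure D3:**
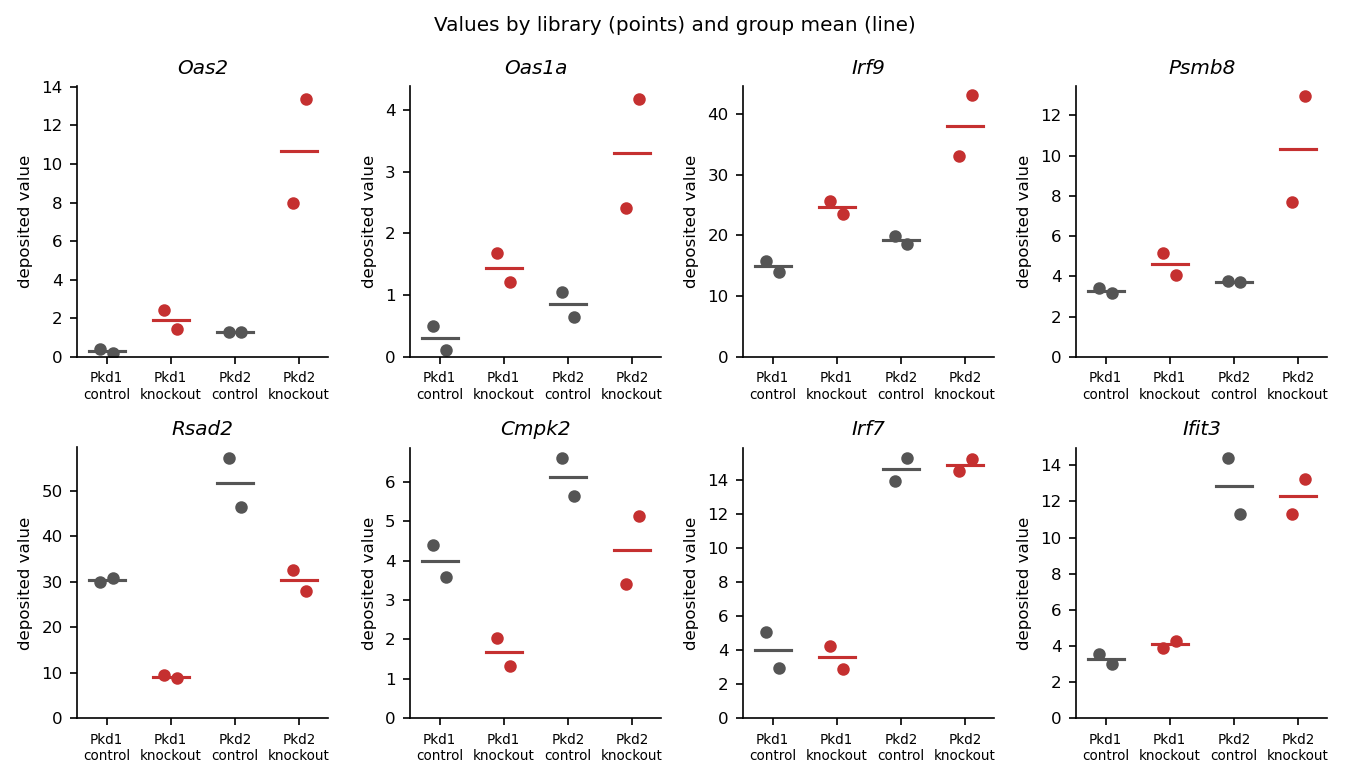
Deposited values of 8 genes in each kidney library (points, 2 per group) with group means (lines), on axes that start at 0, with controls in grey and knockouts in red. Oas2, Oas1a, Irf9 and Psmb8 are highest in the Pkd2 knockouts, and Rsad2 and Cmpk2 are lower in knockouts. Irf7 and Ifit3 separate the models. Knockouts overlap controls in both models for Irf7, and in the Pkd2 model alone for Ifit3.

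The guanylate-binding proteins attack membranes of intracellular microbes, and are a family with similar sequences on chromosome 3. Gbp2 was at 2.34 and 1.99 in Pkd1 controls, 4.06 and 3.43 in Pkd1 knockouts, 4.21 and 3.16 in Pkd2 controls and 6.59 and 13.0 in Pkd2 knockouts. Gbp7 was at 6.10 and 6.00, then 6.79 and 5.80, then 9.11 and 8.87, then 14.6 and 22.5. Both genes were highest in Pkd2 knockout 2. In the Pkd2 model Gbp2 rose by 1.15 ± 0.28 and Gbp7 by 0.94 ± 0.21 (limma adjusted p = 0.0245 and 0.0189). Each call was kept in 13 of 18 alternatives and lost without the filter, with each model alone, and without Pkd2 control 1, Pkd2 control 2 or Pkd2 knockout 2 (adjusted p up to 0.173 and 0.124). Without Pkd2 knockout 2 the differences were 0.71 and 0.64. In the Pkd1 model they were 0.58 ± 0.28 and 0.05 ± 0.21 (adjusted p = 0.217 and 0.911). For Gbp3 the Pkd2 difference was 0.88 ± 0.31 (adjusted p = 0.0856).

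The antigen-processing genes lie side by side on chromosome 17, where Psmb9 and Tap1 start from overlapping ends (212 bases) and Tap1 ends 495 bases before Psmb8. Psmb8 and Psmb9 are catalytic subunits of the immunoproteasome, and Tap1 carries peptides to MHC class I. Psmb8 was at 3.44 and 3.15 in Pkd1 controls, 5.16 and 4.08 in Pkd1 knockouts, 3.77 and 3.71 in Pkd2 controls and 7.68 and 13.0 in Pkd2 knockouts. It rose by 1.22 ± 0.24 in the Pkd2 model (limma adjusted p = 0.0104, kept in 16 of 18 alternatives, lost without Pkd2 control 1 or 2, at up to 0.0765). Tap1 was at 8.69 and 5.71, then 10.9 and 8.06, then 5.30 and 9.99, then 14.2 and 20.1 in the same groups. Its Pkd2 change was 1.11 ± 0.31 (adjusted p = 0.0415, kept in 10 of 18 alternatives). The call was lost without Pkd1 control 1 or 2, Pkd2 control 1 or Pkd2 knockout 2 (adjusted p up to 0.244), among others, and without Pkd2 control 1 the difference was 0.71. Psmb9 was not called, at 0.24 ± 0.28, and its Pkd1 knockouts at 2.43 and 0.804 lay on either side of the controls at 1.33 and 1.97. So of these 3 neighbours, 2 were called.

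The remaining members were not called. Rtp4, a chaperone of receptors, differed by 0.73 ± 0.23 in the Pkd2 model (limma adjusted p = 0.0592). Xaf1, an inhibitor of the antiapoptotic protein XIAP, differed by 0.31 ± 0.19 there. Ifi44 was lower in both Pkd1 knockouts (2.74 and 2.58) than in both controls (3.54 and 3.56), at -0.31 ± 0.21.

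Ordered by level per kilobase of exon, Ifitm3 came first in all 4 groups and Oas3 last. Rsad2 was second in Pkd1 controls (7.01 per kb) and in Pkd2 controls (11.9), in place 8 of 37 in Pkd1 knockouts (2.10) and place 5 in Pkd2 knockouts (6.996). Oas2 went from place 34 (0.0716) in Pkd1 controls to 28 (0.434) in Pkd1 knockouts, and from 33 (0.292) in Pkd2 controls to 21 (2.401) in Pkd2 knockouts. Levels of neighbours in this order were often closer than the spread of 2 libraries, as for Ifit3 (7.03) and Rsad2 (6.996) in Pkd2 knockouts.

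The controls of the models also differed. Pkd2 controls (postnatal day 20) were set against Pkd1 controls (day 10), a comparison in which age, floxed gene, Cre line and sex cannot be told apart, and which shares its libraries with the knockout comparisons. Of the 34 genes, 9 were higher in the older controls (Irf7, Usp18, Parp14, Ifit3, Oasl2, Rsad2, Ifitm3, Trim30a and Ifi44), beside 5.04% of all genes tested, and 0 were lower by limma (also 0 by edgeR and DESeq2), beside 7.26%. The median was 0.57, beside -0.001 over all genes. An unadjusted limma p below 0.05 was found for 22 of the 34, beside 4007 of all 14637 genes. Each of the 34 estimates was above 0, beside 49.83% of all genes. Irf7 was 3.65 times as high (1.67 ± 0.24, adjusted p = 0.00361) and Ifit3, at 3.57 and 3.02 against 14.4 and 11.3, was 3.90 times as high (1.69 ± 0.19, adjusted p = 0.00138). Ifi44 was at 3.54 and 3.56 against 12.2 and 8.18. Irf1, Psmb8 and Tap1, which rose in the Pkd2 knockouts, differed by 0.13, 0.14 and 0.05 between the controls. The 9 calls became 2 without Pkd1 control 1 or without Pkd2 control 1, 3 without Pkd1 control 2 or Pkd2 control 2, and 15 without either Pkd2 knockout. Scaling without mitochondrial and small RNA moved the median of all genes by -0.13 here, and the calls over all genes from 41.0% to 28.1% higher.

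The pathway was read from further lists of its genes outside the 37. Of the interferons, Ifng and Ifnb1 were in the table, with 1 read of Ifng in Pkd1 control 1 and none elsewhere, and a count of 0 allows up to 3 reads, a value of 0.0246 to 0.0841 by library. Of 6 receptor chains, 1 rose in the Pkd1 model and 4 in the Pkd2 model. Ifnlr1, the lambda interferon receptor, was at 1.06 and 0.743 in Pkd1 controls, 3.23 and 3.17 in Pkd1 knockouts, 0.858 and 0.662 in Pkd2 controls and 2.24 and 2.66 in Pkd2 knockouts (1.15 ± 0.17 and 0.97 ± 0.17, limma adjusted p = 0.00550 and 0.00726). Of the controls, only Pkd1 control 1 reached 1, so Ifnlr1 passed the filter only through knockouts. Ifngr1 and Ifngr2, the interferon gamma receptor, rose by 0.88 and 0.90 in the Pkd2 model (limma adjusted p = 0.00870 and 0.00585).

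Of 9 JAK, STAT and IRF genes, Stat3, Jak2 and Irf5 rose in both models. Stat3, mainly a factor of interleukin-6 signalling, rose by 1.38 and 1.36. Of 10 tested genes listed as inhibitors, Socs3, which blocks JAK kinases, rose in both models. It went from 1.58 and 1.44 to 12.5 and 8.32 in the Pkd1 model (2.16 ± 0.23, limma adjusted p = 0.00168). In the Pkd2 model it went from 0.624 and 0.772 to 12.6 and 17.2 (3.21 ± 0.23, limma adjusted p = 0.000321). Isg20 and Samhd1 of the same list rose by 0.97 and 0.63 in the Pkd2 model, but they are enzymes that degrade RNA and nucleotides. Isg20 passed the filter only through knockouts. Of 13 sensors and adaptors, 2 rose in the Pkd1 model, Tlr7 and Tmem173 (STING), and 8 in the Pkd2 model. Tlr7 rose by 1.196 and 1.65 and Tmem173 by 1.202 and 1.87.

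Of 42 other interferon-induced genes tested, 2 rose and 1 fell in the Pkd1 model, and 17 rose and 0 fell in the Pkd2 model. In the Pkd1 model Slfn5 fell by 1.04 (SE 0.16, limma adjusted p = 0.00655), and Ifitm1 rose by 1.14. Oas1g was higher there by 0.77, but it reached 1 only in knockouts and so passed the filter only through them. Epsti1, Slfn9 and Lgals9 led the Pkd2 rises by adjusted p, at 1.55, 1.5 and 0.86. Of 11 interferon gamma-induced GTPase rows, 0 were called by limma in the Pkd1 model, and Gbp5 rose in the Pkd2 model. Gbp8 was called higher there too, but like Oas1g it reached 1 only in knockouts. Of 15 further MHC class I and peptide-loading genes, H2-T23 fell in the Pkd1 model (0.72 on the log2 scale, adjusted p = 0.0490) and 0 were called in the Pkd2 model. Of 7 MHC class II genes, 1 fell in the Pkd1 model (H2-DMb1, by 0.65) and 6 rose in the Pkd2 model, with a median of 1.61. Cd74, the invariant chain, was at 25.4 and 23.03 in Pkd2 controls and 73.9 and 122 in Pkd2 knockouts. Over the 113 tested rows of these lists, 9 (7.96%) rose and 3 (2.65%) fell in the Pkd1 model, beside 5.11% and 5.48% of all genes tested, so the Pkd1 shares lay near the background. Of the same rows, 43 (38.1%) rose in the Pkd2 model and 0 fell, beside 9.54% and 8.13%. The 9 include at least Oas1g and Ifnlr1, and the 43 at least Gbp8, Ifnlr1, Isg20 and Ifi204. These shares thus hold rows that the filter passed only through knockouts.

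Markers of other cell types moved with these groups. In whole kidney, more cells of a type and more RNA per cell cannot be told apart. Of 12 macrophage markers, 9 rose in the Pkd1 model and 12 in the Pkd2 model, beside 5.11% and 9.54% of all tested genes. Their summed value was 48.7 to 53.3 in the Pkd1 controls, 140.0 to 157 in the Pkd1 knockouts, 50.7 to 53.2 in the Pkd2 controls and 239.5 to 277 in the Pkd2 knockouts, and none of the 12 was at 0 in any library. The part of this in the rises of the members was not tested. The sums of the older and younger controls overlapped. The part of macrophages in the 9 members that differed between these controls was not tested either.

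The summed value of 10 T and NK cell markers was 1.27 to 1.30 in Pkd1 controls, 1.13 to 1.38 in Pkd1 knockouts, 1.59 to 2.01 in Pkd2 controls and 3.35 to 3.73 in Pkd2 knockouts, with Cd3e, Cd3d, Nkg7, Gzma, Ncr1 and Klrb1c at 0 in at least 1 library. Cd4, the 1 of them that was tested, was at 0.572 and 0.750 in Pkd2 controls and 1.46 and 1.62 in Pkd2 knockouts. The sum of 5 B cell markers was 2.52 to 3.12 in Pkd1 controls, 3.32 to 5.37 in Pkd1 knockouts, 2.34 to 3.73 in Pkd2 controls and 6.05 to 7.91 in Pkd2 knockouts, with none at 0 in any library. The sum of 5 plasmacytoid dendritic cell markers, the cells known for type I interferon, was 0.678 to 2.60, with Cox6a2 and Cd300c at 0 in at least 1. The sum of 7 neutrophil markers was 2.03 to 2.29 in Pkd1 controls, 4.60 to 6.73 in Pkd1 knockouts, 1.30 to 2.67 in Pkd2 controls and 2.55 to 6.15 in Pkd2 knockouts, with Mmp8 and Ly6g at 0 in at least 1 library. Of the T cell, B cell and neutrophil markers tested, Cd4, Cd79b, S100a8 and Csf3r reached 1 only in knockouts, so no count of calls is given. The part of these cell types in the rises of the members was not tested. Of all tested genes, 5.48% fell in the Pkd1 model and 8.13% in the Pkd2 model, the shares to set beside the falls that follow. Of 8 endothelial markers, 3 fell in the Pkd1 model and 1 in the Pkd2 model, the latter near that share. The 6 proximal tubule markers, by which the samples are kidney, all fell in both models, from 1623 and 1827 to 515 and 620 in summed value in the Pkd1 model and from 2354 and 3128 to 1231 and 904 in the Pkd2 model. Of 4 thick ascending limb markers, 3 fell in each model (medians of -1.28 and -1.63) and 3 were higher in the older controls, beside 5.04% of all tested genes. The 6 collecting duct markers did not fall alike. In the Pkd1 model 2 rose and 0 fell, beside 5.11% rising, with sums of 87.1 to 111 in controls and 180 to 328 in knockouts. In the Pkd2 model 1 rose, beside 9.54%, and 1 fell. In the older controls 2 were higher. Of 4 podocyte markers, 3 fell in the Pkd1 model and 2 in the Pkd2 model, and 3 were lower in the older controls, beside 7.26% of all tested genes. The part of these tubule and podocyte markers in the fall of Rsad2 and Cmpk2 was not tested.

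**Figure D4:**
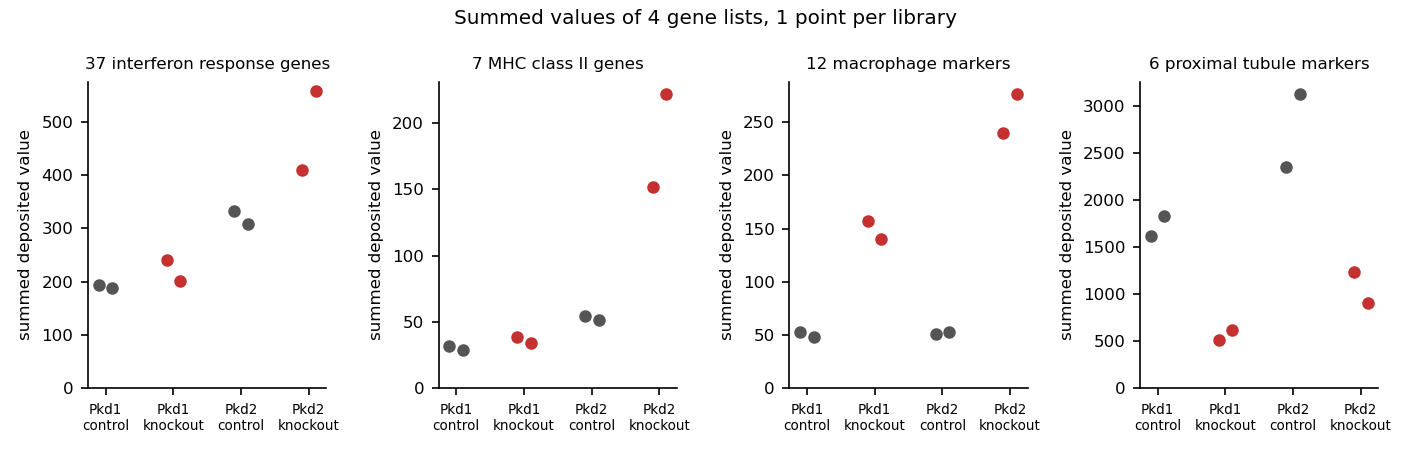
Summed deposited values of 4 gene lists, 1 point per kidney library (2 per group), on axes that start at 0, with controls in grey and knockouts in red. The sum of the 37 genes is 194 and 187.5 in Pkd1 controls, 241 and 201 in Pkd1 knockouts, 332 and 308 in Pkd2 controls and 410 and 557 in Pkd2 knockouts. Macrophage markers are higher in every knockout, and proximal tubule markers are lower.

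In mIMCD-3 cells, the 3 members in the deposited table were all lower with the Hoxb3os gapmer. The table holds only genes that the authors selected by adjusted p, so it does not tell how the other 34 members responded. Of its 2016 genes limma called 2015, 44.4% higher and 55.6% lower. A call there was thus settled by the selection, and no limma p-value is given for the cells. Psmb8 was at 158 and 159 with the control gapmer and 104, 108 and 104 with the Hoxb3os gapmer. Parp14 was at 1376 and 1291 against 1093, 1126 and 1203, and Irf1 at 3615 and 3596 against 3349, 3133 and 3089. Psmb8 fell by 0.59 (SE 0.15), Parp14 by 0.23 (SE 0.06) and Irf1 by 0.18 (SE 0.05), which put the gapmer means at 0.666, 0.855 and 0.884 of the control means. The log2 changes that the authors deposited were smaller, at -0.29, -0.193 and -0.163 (authors' adjusted p = 0.0201, 0.0229 and 0.00869). In the kidneys the same 3 genes rose in the Pkd2 knockouts, by 1.22, 1.01 and 1.01, so the sign in the cells was the opposite.

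Of 21 further pathway genes in the cell table, 20 were lower and 1, the phosphatase Ptpn6, was higher (0.31 ± 0.07). Ikbke, a kinase upstream of interferon production, fell most, from 1510 and 1471 to 626, 600.0 and 576 (1.31 on the log2 scale, SE 0.07). Nlrc5, which drives MHC class I genes, fell by 0.63, and Cxcl10, a chemokine, fell from 977 and 816 to 710, 669 and 721. Stat3, Socs3, Ifngr1 and Lgals9, which rose in the Pkd2 kidneys, fell by 0.18, 0.26, 0.21 and 0.30 in the cells. H2-T23, which fell in the Pkd1 kidneys, fell in the cells too, by 0.41. The level of Hoxb3os itself in these cells was not analysed here.

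**Figure D5:**
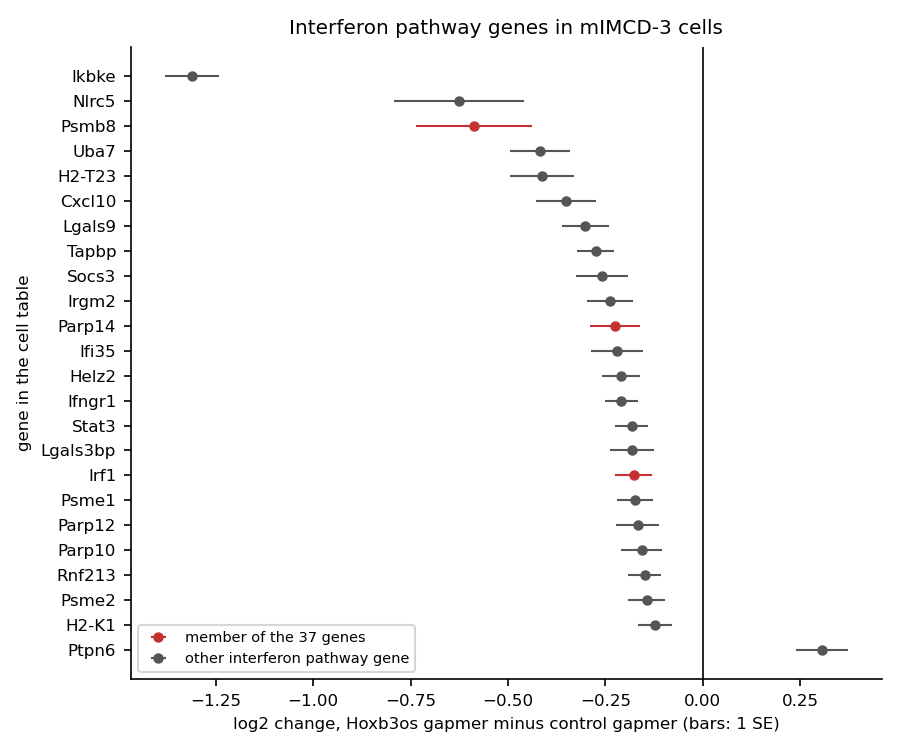
Points are log2 changes, Hoxb3os gapmer minus control gapmer, of the 3 members (red) and 21 other interferon pathway genes (grey) in the cell table, with bars of 1 SE. All but Ptpn6 lie left of 0, and Ikbke lies farthest left at -1.31.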

How the data were processed

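RNA was extracted with Trizol and TruSeq libraries were made, per the labels. Tools named in the submitters' processing notes for the kidneys (mm10) are STAR 2.4.2a, RSEM 1.2.22, Cufflinks 2.2.1, FastQC 0.11.2 and edgeR. For the cells (GRCm38, or mm10) they are STAR 2.4.2a, DESeq2 1.12.3, Trimmomatic 0.32 and SAMtools 1.0. Their settings, the annotation and any use of strand are not given in the sources at hand. In the kidney table, the authors deposited a signal for every gene in every library under a header without a unit. From the values, it was read as estimated reads scaled to depth over a scaling factor, and 93.9% to 96.2% of genes per library were whole multiples of 1 read (within 0.02 reads), Pkd1 control 1 being the least certain. The cell signal deposited by the authors is scaled reads of selected genes. The log2 fold changes that the authors deposited are control over knockout for kidneys and gapmer over control for cells. Deposited p-values are adjusted, per the file headers.

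limma 3.58.1 (trend, R 4.3.3) was run on log2(value + 1), for the kidneys in 1 fit of 4 groups over 8 libraries (4 residual degrees of freedom, prior 4.77) and for the cells in a fit of 5 libraries (3 residual, prior 36.2). Adjustment was over all genes tested. Named were members called in a model, plus Ifit1, Isg15, Irf7, Stat2, Mx1, Gbp2, Psmb8, Ifitm3, members in the cell table and up to 3 called genes per list, Ifi44 and others being given by role. Members and lists were chosen with earlier results of these data known. Alternatives were scaling, filter, pseudocount 0.1, edgeR 4.0.16 and DESeq2 1.42.0 on recovered reads, each model alone, sex, a replicate block, a minimum fold of 1.5 and leaving out each library. Scripts were tested on simulated data. Some genes are not reported here.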

Additional observations from a re-analysis of the deposited data

How the results depend on the processing

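Of 703 alternative values of single genes, 595 kept their direction and side of the threshold, 89 lost and 9 gained a call, and 10 changed sign, all of genes not called. With the members called (limma), leaving out each library in turn gave 0 to 4 higher and 1 to 2 lower in the Pkd1 model, 1 to 19 higher and 0 to 1 lower in the Pkd2 model, and 2 to 15 higher in older controls. A lone library is then assumed to vary like the other groups. In the same fits, the median change of the members ran from -0.042 to 0.362 in the Pkd1 model and from 0.404 to 0.794 in the Pkd2 model. Signs changed in the Pkd1 model for Gbp7 (-0.052 to 0.144), Trim30a (-0.046 to 0.457), Ifit1 (-0.038 to 0.604), Isg15 (-0.166 to 0.305) and Irf7 (-0.415 to 0.19), and in the Pkd2 model for Irf7 (-0.037 to 0.086, and -0.11 with sex as a covariate) and Stat2 (-0.01 to 0.61).

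Without the filter, 26812 genes were tested in place of 14637, and calls were 1 higher and 1 lower (Pkd1), 5 higher (Pkd2) and 4 higher (older controls). Each model alone, with fewer samples, gave 7 higher and 0 lower in Pkd2. With sex as a covariate 1 was lower in Pkd1 and 4 higher in older controls, and DESeq2 called 14 higher there. The cause was not tested. Same-numbered libraries did not deviate together (correlation -0.378 in Pkd1 and -0.049 in Pkd2), so the numbers were not taken as pairs. With the replicate block, 2 were higher and 1 lower in Pkd1, 11 higher and 1 lower in Pkd2, and 3 higher in older controls. Crossed numbers in Pkd1, chosen after seeing the data, gave the same counts, 2 and 1, 11 and 1, and 3. The block ended the Pkd1 calls of Irf9 (adjusted p = 0.106, and 0.0674 crossed) and Cmpk2 (0.0621 and 0.0650) and the Pkd2 call of Parp9 (0.0643 and 0.0507). The filter on low values left out Zbp1, Oas3 and Mx1, with 71, 60 and 96 reads in Pkd2 knockout 2. Depth limits low genes such as Oas1a and Oas2, with 5 and 10 reads in Pkd1 control 2.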
